A study of Saccharomyces cerevisiae with 46 samples.

Results

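Of 3569 meiotic DNA double-strand break (DSB) hotspots, 335 were strong in *rad50S* cells and kept nearly the same relative break level when the nucleosome binding of Hop1 was lost by mutation, and these stable hotspots are described here. They were chosen by their own values. The calls used the mean over the *rad50S* and *rad50S hop1-loop2* libraries (4 in all), and a hotspot was kept where its mean in *rad50S* was at least 100 HpM (hits in the hotspot per 1000000 hits of the library) and where the ratio of the *rad50S hop1-loop2* mean to the *rad50S* mean lay from 0.8 to 1.25. The 335 hotspots were 17.5% of the 1914 strong hotspots and 9.39% of all hotspots. Of the other strong hotspots, 1068 were below this window (strong lower) and 511 above it (strong higher).

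Breaks were mapped by CC-seq, which sequences the DNA ends to which the break-forming enzyme Spo11 is covalently bound, in SK1 cultures of *Saccharomyces cerevisiae* collected 6 h after transfer to sporulation medium, with 2 libraries for each of 3 genotypes. These were *rad50S* alone, *rad50S* with *hop1-loop2*, and *rad50S* with both *hop1-loop2* and *pch2*, called *rad50S*, *hop1-loop2* and *hop1-loop2 pch2* (or the *pch2* libraries) from here on. All 6 libraries carry *rad50S*, which blocks removal of Spo11 from the ends, so breaks accumulate unrepaired and no library shows wild-type repair. The *hop1-loop2* allele changes residues of the nucleosome-binding surface in the chromatin-binding region of Hop1, and the third genotype also lacks *PCH2*. The samples were grouped by their titles, with which the genotype entries of the labels disagree, and the *pch2* libraries were not found in the study's list of CC-seq libraries, so their genotype rests on the titles. In the study's strain list the *rad50S* strain carries *HIS4::LEU2*, which the study used as a hotspot locus, and the strain of the *pch2* genotype does not. The strain named for the *hop1-loop2* libraries was not found in that list. The genotypes may thus differ by more than the named alleles. The study's methods describe the CC-seq replicates as independent biological replicates.

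Hop1 is a HORMA domain protein of the chromosome axis that helps to bring the break machinery to chromatin. In meiotic chromosomes, axis proteins anchor the bases of chromatin loops, while breaks form mostly in nucleosome-depleted sites such as promoters. Hop1 reaches the axis by binding the cohesin-based axis proteins and, through its chromatin-binding region, by binding nucleosomes. Pch2 is an AAA+ ATPase that removes Hop1 from the axis.

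The libraries differed in depth and in background. The *rad50S* and *hop1-loop2* libraries held 6277735 to 7985420 hits, of which 87.9% to 89.4% lay in hotspots. The *hop1-loop2 pch2* libraries held 3614810 and 1026669 hits, with 84.3% and 63.2% in hotspots, so replicate 2 of this genotype stood apart from the other 5 libraries. At a stable hotspot the median number of hits was 1656 to 2092 in the first 4 libraries, 787 in *hop1-loop2 pch2* replicate 1 and 164 in replicate 2. HpM is a relative unit, so fewer breaks in the cells and more breaks elsewhere cannot be told apart. By gels and Southern blots in *rad50S* strains, the study found fewer breaks in *hop1-loop2* and fewer still in *hop1-loop2 pch2*. A stable hotspot is thus one that kept its share of the hits, and its number of breaks per cell was not measured here. The median ratio to *rad50S* over all 3569 hotspots was 0.890 in *hop1-loop2* (-0.17 in log2) and 0.698 in *hop1-loop2 pch2* (-0.52 in log2), and changes at the stable hotspots are read against these shifts.

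The strongest stable hotspot lay on chromosome IV at 823272 to 824582 (coordinates of the SK1 assembly ASM205788v1 throughout) and was 1311 bp wide. It took 6979 and 5546 HpM in *rad50S*, 6514 and 6565 HpM in *hop1-loop2*, and 5026 and 3904 HpM in *hop1-loop2 pch2*. The *hop1-loop2* values fell between the *rad50S* replicates, and both *pch2* libraries were below all the others. Next in level was a hotspot of 1330 bp on chromosome III (216234 to 217563), with 4134 and 3127 HpM in *rad50S*, 3851 and 3539 HpM in *hop1-loop2*, and 2579 and 1681 HpM with *pch2*. Here too the first 2 genotypes overlapped and the *pch2* libraries lay below them. A hotspot of 1408 bp on chromosome VI (116184 to 117591) had 4055 and 2738 HpM in *rad50S*, 4005 and 3896 HpM in *hop1-loop2*, and 5004 and 4241 HpM with *pch2*, so at this hotspot the *pch2* libraries were the highest of the 6.

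**Figure D1:**
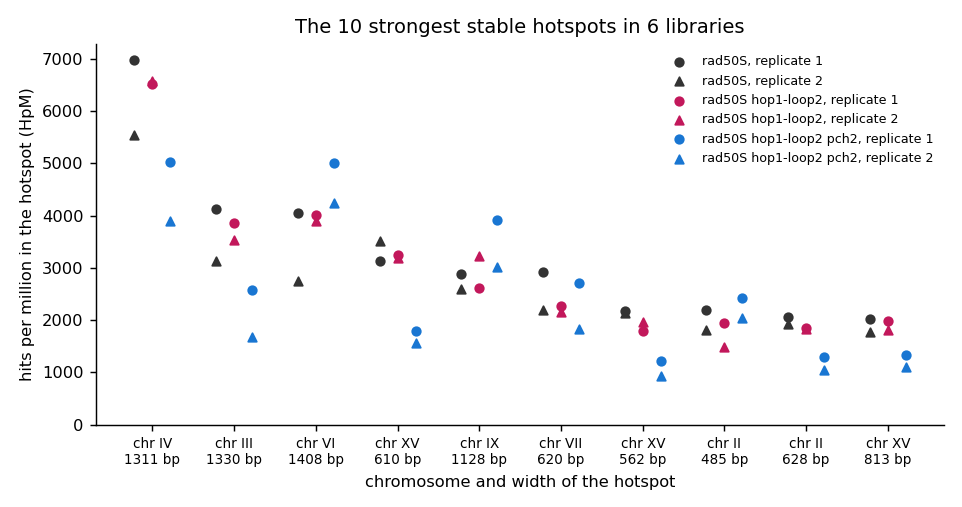
HpM (vertical axis, from 0) in each of the 6 libraries at the 10 stable hotspots with the highest *rad50S* mean, ordered by that mean, with the chromosome and width of each on the horizontal axis. Colours mark genotypes, circles replicate 1 and triangles replicate 2. The black and magenta points, which chose the hotspots, lie close together, whereas the blue *pch2* points lie below them at some hotspots and above them on chromosome VI.

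The other 7 of the 10 strongest stable hotspots had *rad50S* means from 1892 to 3319 HpM. Among these, the hotspot on chromosome XV at 568147 to 568756 had 3129 and 3509 HpM in *rad50S*, 3239 and 3193 HpM in *hop1-loop2*, and 1795 and 1564 HpM with *pch2*, while the one on chromosome IX at 319057 to 320184 had 2885 and 2597 HpM, 2608 and 3230 HpM, and 3914 and 3007 HpM in the same order of genotypes. The *pch2* libraries were thus below all others at the first hotspot and overlapped *hop1-loop2* at the second. Of all stable hotspots of at least 500 HpM, the ratio of the *hop1-loop2* mean to the *rad50S* mean was nearest 1 at chromosome XV 475994 to 476806 (1.00), chromosome III 202129 to 202499 (1.00) and chromosome IX 255252 to 255629 (0.996).

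The window cut through a continuous spread of ratios. Bins of the same log2 width held 308 strong hotspots just below the window, 335 inside it and 247 just above it, so the stable hotspots were no separate cluster. Inside the window 169 hotspots had a ratio below 1 and 166 a ratio of at least 1, and 93 lay within 0.95 and its inverse. Just inside the lower limit were a hotspot on chromosome XIII at 783137 to 783414 (ratio 0.800) and one on chromosome III at 213089 to 213292 (0.801). Just outside it were hotspots on chromosome VII at 436930 to 437361 (0.799) and chromosome XII at 335846 to 336643 (0.797). At the upper limit, 2 hotspots on chromosome V (81777 to 82566 and 103543 to 104260, both 1.246) were inside, whereas hotspots on chromosome XVI at 497331 to 497599 and chromosome XV at 569506 to 569966 (1.250 and 1.251) were outside. At the limit on level, chromosome XV 277462 to 277641 and chromosome II 319134 to 319312 were inside with *rad50S* means of 100.3 and 100.2 HpM, and chromosome XV 77313 to 77523 and chromosome XII 667098 to 667282 were outside with 99.6 and 98.6 HpM.

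**Figure D2:**
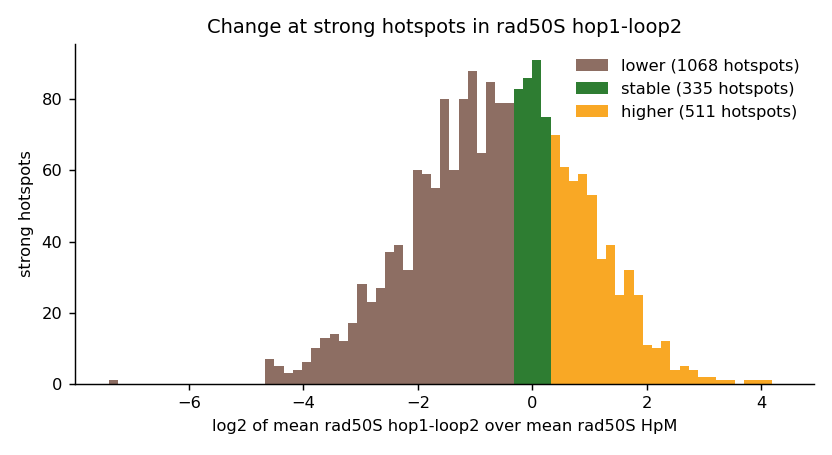
Number of strong hotspots (vertical axis) by the log2 ratio of mean *hop1-loop2* to mean *rad50S* HpM (horizontal axis), coloured by class. The 335 stable hotspots sit in the middle of a continuous distribution, with 1068 hotspots to the left and 511 to the right.

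Because the same libraries chose and measured them, the stable hotspots were also chosen in 1 replicate and read in the other. Choosing on replicate 1 of both genotypes gave 332 hotspots, of which 233 (70.2%) were inside the window in replicate 2, against 16.9% of all strong hotspots. Choosing on replicate 2 gave 318 hotspots, of which 230 (72.3%) were inside in replicate 1, against 17.5%. The median ratio in the replicate not used for the choice was 1.04 and 0.985. The hotspot regions themselves were called on all 4 libraries, so the replicate read was not independent of the choice. These shares describe how far the replicates agreed and are no test of the stable hotspots. With the means of both replicates, 160 of the 335 hotspots had all 4 ratios between single libraries inside the window. The *rad50S* and *hop1-loop2* libraries overlapped at 202 of the 335 hotspots, and both *hop1-loop2* libraries were below both *rad50S* libraries at 67 and above them at 66. Over all hotspots 48.3% were below and 39.3% above in this way, and since the rule used this contrast these shares are given as a description.

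Stable hotspots occurred at every level of activity. Their share was 17.5% of strong hotspots from 100 to 200 HpM, 17.5% from 200 to 500 HpM, 16.9% from 500 to 1000 HpM and 18.7% (28 of 150) at 1000 HpM or more. Their median *rad50S* level was 264 HpM, close to the 258 HpM of all strong hotspots. Together they held 15.3% and 14.2% of all hits in *rad50S*, 14.7% and 14.6% in *hop1-loop2*, and 12.7% and 9.41% with *pch2*. The *pch2* libraries were lower on this measure, but 2 libraries against 2 cannot give a p below 0.333 in an exact permutation test. As a share of the hits in hotspots alone the values were 17.1% and 16.1%, 16.5% and 16.4%, and 15.1% and 14.9%, so much of the gap of *pch2* replicate 2 was not seen on this scale.

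In width the stable hotspots lay between the other classes. Their median width was 286 bp (middle 50% from 225 to 476.5 bp), against 246 bp for strong lower, 428 bp for strong higher and 277 bp for all strong hotspots. Stable hotspots made up 11.3% of strong hotspots under 200 bp, 19.0% from 200 to 300 bp, 16.5% from 300 to 500 bp, 21.5% from 500 to 1000 bp and 15.4% (6 of 39) from 1000 bp, with no steady trend. The widest stable hotspot was on chromosome VII at 996448 to 998011 (1564 bp), with 1356 and 1449 HpM in *rad50S*, 1202 and 1241 HpM in *hop1-loop2*, and 734 and 502 HpM with *pch2*. Both mutants were below *rad50S* in all libraries there. Next in width were the hotspots on chromosomes VI and III described above. The narrowest were 168 bp on chromosome XI (405319 to 405486), 169 bp on chromosome VII (496320 to 496488) and 176 bp on chromosome XVI (225957 to 226132), all near the lower limit of level, with *rad50S* values of 94.0 to 148 HpM. The width of a called hotspot depends on its level and on the smoothing, and the part of level in these widths was not tested.

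Break profiles inside the stable hotspots overlapped between the first 2 genotypes nearly as much as between replicates, as they did in the other strong classes. Over bins of 10 bp, the median overlap of the break profiles (the percent of hits shared after each profile was scaled to the same sum) was 91.5% between *rad50S* replicates, 91.3% between *hop1-loop2* replicates and 88.7% between these genotypes. Between these genotypes it was also 88.7% for strong higher and 86.8% for strong lower hotspots. The centre of mass moved by a median of 6.95 bp between the genotypes, against 3.53 and 3.16 bp between replicates, and by more than 20 bp at 47 hotspots, against 20 and 11 between replicates. The profiles of the *pch2* libraries overlapped each other by 68.6% and *rad50S* by 73.7%, beside a median of 164 hits per hotspot and 63.2% of hits in hotspots in replicate 2, whose part in these values was not tested. Against *rad50S*, the overlap over the 4 pairs of libraries ranged from 65.8% to 82.2%.

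The split of hits between the left and the right side of a hotspot was tested with limma on log2 ratios, with Benjamini-Hochberg adjustment over all hotspots. Between *hop1-loop2 pch2* and *rad50S* it changed at 37 of 335 stable hotspots, with 18 shifting left and 19 right, beside 7.23% of all hotspots and 227 of the 1914 strong ones. On chromosome XIII (482997 to 483790) the left side held 68.4% of hits in *rad50S*, 55.9% in *hop1-loop2* and 37.4% with *pch2*. On chromosome XI (243264 to 243918) it held 8.80%, 11.5% and 23.4%, and both hotspots were chosen for naming after their values were seen. The adjusted p was 0.0198 and 0.00998 in limma with Benjamini-Hochberg adjustment. Of the *hop1-loop2* against *rad50S* balances, 1 of 335 passed, beside 0.168% of all hotspots. Without *pch2* replicate 1 or replicate 2 the count of 37 became 182 or 126, beside 58% and 32.5% of all hotspots, so the counts rose over all hotspots as well. In these fits the lone *pch2* library is assumed to vary like the other groups.

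The Watson and Crick strands shared the hits evenly at the median stable hotspot, with 50.1% on Watson in *rad50S*, 50.8% in *hop1-loop2* and 50.6% with *pch2*. Single hotspots were uneven in all 3 genotypes. At chromosome XV 475994 to 476806 the Watson share was 77.3%, 74.5% and 77.0%. At this hotspot the base position with the most hits, with the strands counted apart, took 23.2% of the *rad50S* hits. The median of this share over the stable hotspots was 8.78%.

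The flanks of stable hotspots were spread over all 3 ranges, as were those of strong hotspots in general. For 147 of the 335 (43.9%) the summed signal of the other hotspots within 10 kb fell below the window in *hop1-loop2*, for 107 (31.9%) it was above, and for 81 (24.2%) it was inside. For all strong hotspots with flanks these shares were 49.0%, 29.6% and 21.4%. For strong lower hotspots the share with flanks below the window was 66.0%, and for strong higher hotspots the share with flanks above it was 60.9%. Across all strong hotspots the log2 ratio of a hotspot and that of its flanks had a Pearson r of 0.58 and a Spearman rho of 0.57 (n = 1912 hotspots, which share the same libraries and in part the same neighbours). The median flank ratio of the stable hotspots was 0.902, against 0.816 for all strong hotspots and 0.916 over all hotspots.

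On chromosome XV the stable hotspot at 475994 to 476806 was surrounded by hotspots with lower means in *hop1-loop2*. It had 2013 and 1771 HpM in *rad50S*, 1981 and 1814 HpM in *hop1-loop2*, and 1325 and 1110 HpM with *pch2*. A hotspot of about the same strength to its left (468715 to 469358, at -7.36 kb from centre to centre) had a mean of 2002 HpM in *rad50S*, 124 HpM in *hop1-loop2* and 138 HpM with *pch2*. The summed signal of its 4 neighbours in *hop1-loop2* was 0.185 of that in *rad50S*. On chromosome VI, the stable hotspot at 127384 to 127995 had 319 and 336 HpM in *rad50S*, 277 and 381 HpM in *hop1-loop2*, and 230 and 247 HpM with *pch2*. All of its 8 neighbours within 10 kb had lower means in *hop1-loop2*, with the strongest of them (137096 to 137333) at 678 HpM in *rad50S* and 49.3 HpM in *hop1-loop2*, and their summed ratio was 0.175.

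The reverse setting was found on chromosomes VIII and XII. The stable hotspot at chromosome VIII 109909 to 110114 had 157 and 124 HpM in *rad50S*, 155 and 175 HpM in *hop1-loop2*, and 295 and 224 HpM with *pch2*. Its 6 neighbours summed to 4.46 times their *rad50S* level in *hop1-loop2*, and the strongest of them (118112 to 119176) had a mean of 1011 HpM in *rad50S*, 4532 HpM in *hop1-loop2* and 7191 HpM with *pch2*. On chromosome XII the stable hotspot at 505651 to 505841 had 113 and 109 HpM in *rad50S*, 105 and 115 HpM in *hop1-loop2*, and 181 and 93.5 HpM with *pch2*. Its flank ratio of 4.80 rested on 2 weak hotspots with 14.4 and 23.0 HpM in *rad50S*.

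**Figure D3:**
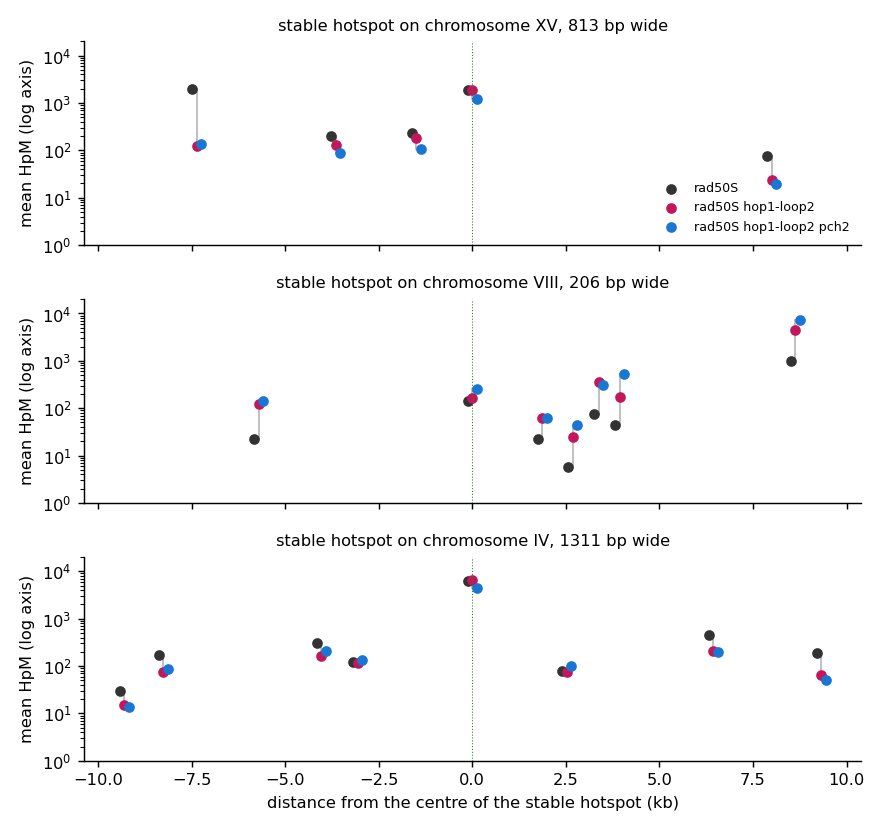
Mean HpM of 2 libraries (vertical log axis) of each hotspot within 10 kb of a stable hotspot, by distance of hotspot centres in kb, for the stable hotspots on chromosomes XV (lower flanks), VIII (higher flanks) and IV (the strongest stable hotspot). Black is *rad50S*, magenta *hop1-loop2* and blue *hop1-loop2 pch2*, with grey lines joining the means of a hotspot. The magenta and black points nearly coincide at the dotted line and part at many of the neighbours.

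Among strong hotspots along a chromosome, the immediate neighbours of stable hotspots were strong lower in 48.6%, stable in 23.2% and strong higher in 28.3% of cases, against 55.6%, 17.5% and 26.9% for all strong hotspots. Of the 330 stable hotspots with a strong neighbour on each side, 83 (25.2%) stood between a lower and a higher one, 78 between 2 lower and 30 between 2 higher ones. For strong lower and strong higher hotspots the share between a lower and a higher neighbour was 17.6% and 30.8%. A stable hotspot was the next strong one on at least 1 side for 139 of the 335 (41.5%), against 32.1% of all strong hotspots. This share was 28.7% for strong lower and 32.9% for strong higher hotspots. The other 196 stable hotspots stood alone, and the rest formed 49 runs of 2, 11 runs of 3 and 2 runs of 4.

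The 2 longest runs had unlike values in the *pch2* libraries, and the difference was not tested. The 4 hotspots of the run on chromosome XII (718517 to 738748, 20.2 kb) summed to 1289 and 1235 HpM in *rad50S*, 1354 and 1275 HpM in *hop1-loop2*, and 1328 and 941 HpM with *pch2*. The 4 hotspots of the run on chromosome XV (234385 to 254660, 20.3 kb) summed to 2791 and 2484 HpM, 2289 and 2460 HpM, and 1551 and 1177 HpM in the same order. The *pch2* libraries overlapped *rad50S* in the first run, with a ratio of means of 0.899, and were below all others in the second, with 0.517. In the second run most of the signal came from 1 hotspot (248234 to 248795), with 2175 and 2129 HpM in *rad50S*, 1785 and 1962 HpM in *hop1-loop2*, and 1211 and 939 HpM with *pch2*.

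**Figure D4:**
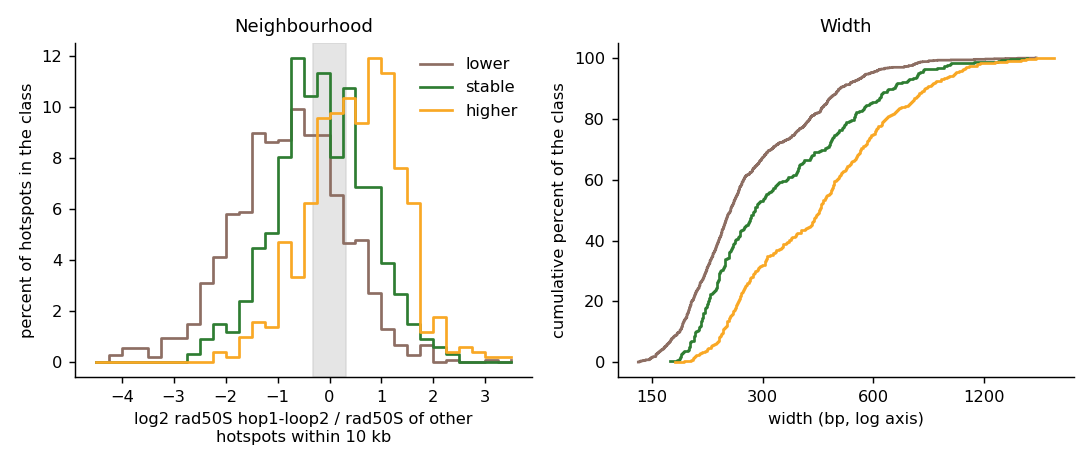
Left, percent of hotspots of each strong class (vertical axis) by the log2 ratio of *hop1-loop2* to *rad50S* of the other hotspots within 10 kb, with the window of the rule in grey. Right, cumulative percent of each class (vertical axis) by width in bp (log axis). On both axes the stable class lies between the strong lower and strong higher classes, with median flank ratios of 0.902, 0.593 and 1.44 and median widths of 286, 246 and 428 bp.

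Stable hotspots were present on all 16 chromosomes. Their share of strong hotspots ran from 9.30% on chromosome I (4 of 43) and 13.7% on chromosome IV (35 of 255) to 24.4% on chromosome III (10 of 41) and 25.5% on chromosome IX (12 of 47). On chromosome I, 38 of the 43 strong hotspots were in the lower class. The 3 short chromosomes I, III and VI together held 27 stable of 148 strong hotspots (18.2%), against 17.4% on the other 13. By distance from the end of the chromosome (taken as the last position with a hit), the share was 9.38% at 20 to 50 kb (9 of 96), 15.7% at 50 to 100 kb, 20.0% at 100 to 200 kb and 17.4% beyond 200 kb. The 13 strong hotspots nearest the ends included 3 stable ones.

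Hop1 itself was measured by SNP-ChIP, a ChIP-seq with S288c cells mixed in so that totals can be compared, in 1 library set of wild type and 1 of the *hop1-loop2* mutant with *RAD50* intact. In *hop1-loop2* the Hop1 signal was 40.3% of wild type on chromosome I, 40.2% on III and 43.0% on VI, and 53.2% to 70.9% on the other 13 chromosomes. Between the share of stable hotspots and these levels the Pearson r was -0.09 and the Spearman rho -0.16 over 16 chromosomes (a description, since all points share the same libraries). The SNP-ChIP samples were collected at an earlier hour of meiosis than the CC-seq samples, so the 2 measures are of unlike times. The *hop1-loop2* input held 278247 reads, against 5549193 in the wild-type input. Only 1 library set per genotype was used here, so these values have no replicate error, and other SNP-ChIP sets of these genotypes were not analysed here.

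In the *pch2* mutant the stable hotspots, like all hotspots at the median, took a smaller share of all hits. The ratio of its mean to the *rad50S* mean was inside the same window at 105 of the 335 hotspots (31.3%), below it at 205 (61.2%) and above it at 25 (7.46%). Over all hotspots 15% were inside the window in this comparison, 55.4% below it and 29.6% above it. Of all strong hotspots 13.6% were inside, with 2.62% of strong lower and 25.0% of strong higher ones. Against *hop1-loop2*, 104 stable hotspots were inside, beside 36.8% of all hotspots. The median ratio to *rad50S* was 0.714 at the stable hotspots, 0.698 over all hotspots and 0.540 over all strong hotspots. It was 0.281 for strong lower and 1.56 for strong higher hotspots. With hits scaled to the hotspots alone, the median became 0.865 for stable, 0.840 for all and 0.651 for all strong hotspots. On this scale 142 stable hotspots (42.4%) were inside the window, 140 below and 53 above it. Of all 3569 hotspots 588 were inside (16.5%), 1710 below and 1271 above, and of all strong ones 303 were inside (15.8%). The *rad50S* libraries entered both the choice of the hotspots and this ratio. In single *pch2* libraries the median ratio was 0.834 and 0.612, with 141 and 69 hotspots inside the window, and on the scale of hotspot hits 0.877 and 0.859, with 136 and 139 inside.

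**Figure D5:**
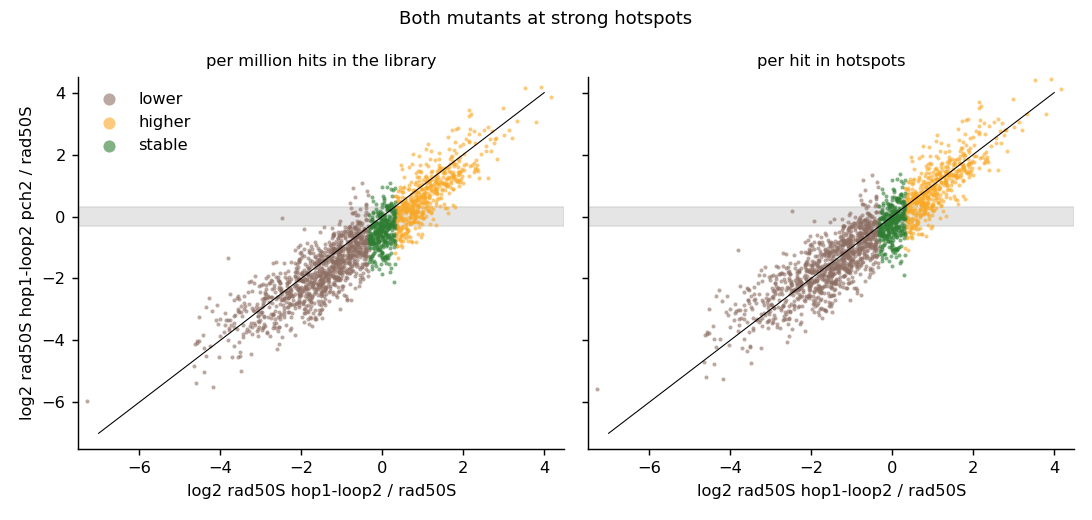
Log2 ratio of *hop1-loop2 pch2* to *rad50S* (vertical axis) against that of *hop1-loop2* to *rad50S* (horizontal axis) at the strong hotspots, scaled to all hits of a library (left) or to the hits in hotspots (right). Both axes share the *rad50S* libraries, the grey band is the window of the rule and the line marks the same value on both axes. The stable class (green) has a median ratio on the vertical axis of 0.714 on the left and 0.865 on the right.

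In the fit over all 3569 hotspots (limma on log2(HpM + 1), Benjamini-Hochberg adjusted p below 0.05), 132 of the 335 stable hotspots fell and 7 rose in *hop1-loop2 pch2* against *rad50S*. In the same fit 43.9% of all hotspots fell and 21.3% rose, beside 39.4% and 2.09% of the stable ones. Of all strong hotspots 58.4% fell and 14.3% rose, so both stable shares were below those of strong hotspots. The share that fell was 90.1% for strong lower and 4.70% for strong higher hotspots, and the share that rose was 0.375% and 51.5%. The *rad50S* libraries of this comparison also set these classes. Both *pch2* libraries were below both *rad50S* libraries at 209 stable hotspots, beside 54% of all hotspots, and above them at 28, beside 27.8%. The direction of the calls depended on the scale. For centring on the median ratio, both libraries of a mutant genotype were divided by the median ratio of that genotype to *rad50S*. The offset between the *pch2* replicates was thus left in. With this centring, which also moves the window and gives 337 hotspots, 52 fell and 32 rose, beside 30.6% and 31.4% of all hotspots. Relative to hits in hotspots 106 fell and 35 rose among 336, beside 40.2% and 29.6%. In edgeR on the recovered reads 62 of 335 fell and 65 rose, beside 35.5% and 34.4% of all hotspots, with a median log2 change of -0.02 at the stable hotspots and -0.05 over all hotspots. Without *pch2* replicate 1, 224 fell and 5 rose, beside 56% and 20.9%, and without replicate 2, 119 fell and 32 rose, beside 43% and 29.2%. Without *rad50S* replicate 1 or replicate 2, 68 fell in either case, beside 34.6% and 34.3% of all hotspots, and the set of stable hotspots then also changed, to 310 and 340.

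The 3 largest decreases were those with the lowest log2 change among calls whose groups did not overlap. On chromosome II (608119 to 608576) the values were 216 and 262 HpM in *rad50S*, 276 and 305 HpM in *hop1-loop2*, and 67.5 and 41.9 HpM with *pch2*, a log2 change of -2.14 ± 0.27 (SE) against *rad50S* (limma, Benjamini-Hochberg adjusted p = 0.000108). The 3 other hotspots within 10 kb of it summed to 2.49 times their *rad50S* level in *hop1-loop2* and 2.73 times with *pch2*, so this hotspot fell where its neighbours as a sum were higher. On chromosome VII (142964 to 143423) the values were 603 and 645 HpM, 589 and 648 HpM, and 218 and 129 HpM, a log2 change of -1.89 ± 0.27. On chromosome XIV (89477 to 89777) they were 293 and 216 HpM, 306 and 283 HpM, and 118 and 44.8 HpM, a log2 change of -1.78 ± 0.39. All 3 hotspots had higher values in every *rad50S* and *hop1-loop2* library than in either *pch2* library.

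The 3 largest increases were smaller. On chromosome XIII (262835 to 263163) the values were 299 and 344 HpM in *rad50S*, 300.1 and 440 HpM in *hop1-loop2*, and 752 and 620 HpM with *pch2*, a log2 change of 1.09 ± 0.25 (limma, Benjamini-Hochberg adjusted p = 0.00348). On chromosome XI (446712 to 446960) they were 218 and 223 HpM, 205 and 272 HpM, and 501 and 356 HpM, a log2 change of 0.93 ± 0.25. On chromosome XVI (551381 to 551623) they were 525 and 395 HpM, 469 and 675 HpM, and 965 and 769 HpM, a log2 change of 0.92 ± 0.26. In all 3 the *pch2* libraries were above the other 4.

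Among the stable hotspots of at least 200 HpM, those with a *hop1-loop2 pch2* mean nearest the *rad50S* mean differed in their *hop1-loop2* values. The one on chromosome X at 347460 to 348279 had 1211 and 927 HpM in *rad50S*, 1309 and 1340 HpM in *hop1-loop2*, and 1190 and 939 HpM with *pch2*, a ratio of 0.996 between *hop1-loop2 pch2* and *rad50S*. Both *hop1-loop2* libraries were above both *rad50S* libraries there, with a ratio of 1.24, near the upper limit of the window. The hotspot on chromosome V at 347891 to 348153 had 248 and 282 HpM, 273 and 276 HpM, and 321 and 213 HpM, a ratio of 1.01. On chromosome IV, a hotspot at 33246 to 33730 had 252 and 200 HpM, 236 and 178 HpM, and 272 and 186 HpM, also a ratio of 1.01. The *pch2* libraries overlapped the *rad50S* libraries at the first hotspot and spanned them at the other two. At 26 of the 335 stable hotspots all 6 libraries were within the window around the *rad50S* mean. No call in limma, as for 196 of the 335 hotspots, does not show that a hotspot was unchanged, since 91 of these were outside the window.

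Against *hop1-loop2*, from which it differs by *pch2* in the titles, the *hop1-loop2 pch2* mutant had lower levels at 79 of the 335 stable hotspots (23.6%) and a higher level at 1 (limma, Benjamini-Hochberg adjusted p below 0.05), beside 11.9% and 2.8% of all hotspots. Of all strong hotspots 17.2% fell and 2.56% rose. The share that fell was 21.7% for strong higher and 13.0% for strong lower hotspots. This comparison shares the *pch2* libraries with the one against *rad50S*, and the *hop1-loop2* libraries with the choice of hotspots. The median ratio was 0.738 at the stable hotspots, 0.830 at strong lower, 0.753 at strong higher and 0.823 at all hotspots. On the scale of hotspot hits these medians were 0.885, 1.01, 0.910 and 0.998. The 1 hotspot that rose was the one on chromosome XIII at 262835 to 263163, with a log2 change of 0.91 (adjusted p = 0.038 in limma). In edgeR on the recovered reads 72 fell and 21 rose, beside 11% and 12.1% of all hotspots. Without *hop1-loop2* replicate 1 or 2, 2 or 1 fell and 0 rose, in sets of 329 and 325 hotspots. Over all hotspots 0.28% or 0.028% fell and 0.168% or 0.0841% rose in these fits, so calls were nearly lost everywhere. Without *pch2* replicate 1, 208 of 335 fell, beside 45.3% of all hotspots. Both *pch2* libraries were below both *hop1-loop2* libraries at 209 stable hotspots, beside 45% of all hotspots, and above them at 22, beside 16%.

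The ratio with and without *pch2* at a stable hotspot was correlated with that of its surroundings. The log2 ratio of *hop1-loop2 pch2* to *hop1-loop2* at the hotspot and that of the other hotspots within 10 kb had a Pearson r of 0.66 and a Spearman rho of 0.63 (n = 335 hotspots in the same 4 libraries), and r was 0.64 over strong hotspots in general (n = 1912). Stable hotspots with flanks below the window in *hop1-loop2* had a median ratio of *pch2* to *rad50S* of 0.674, with 38 of 147 inside the window, those with flanks inside it 0.752 (29 of 81) and those with flanks above it 0.778 (38 of 107). By chromosome, the median ratio of the stable hotspots was 0.977 on III (10 hotspots) and 0.932 on V (18 hotspots), and lowest on IV with 0.578 (35 hotspots) and XIII with 0.613 (25 hotspots). By *rad50S* level it was 0.769 from 100 to 200 HpM, 0.711 from 200 to 500, 0.661 from 500 to 1000 and 0.620 from 1000 HpM. The *rad50S* mean both set these levels and divided the ratio. Its part in this order, and that of the hits outside hotspots in *pch2* replicate 2, was not tested. The stable hotspots inside the window with *pch2* had a median width of 261 bp, against 307 bp for those below the window and 249 bp for those above it.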

How the data were processed

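Per the labels and the study's methods, the authors aligned CC-seq reads with Bowtie2 to the SK1 assembly and deposited hits per position and strand in HpM, an RPM unit, with replicates apart. In all 6 libraries 100% of values were whole multiples of 1 hit (tolerance 0.01), so whole reads were recovered. For SNP-ChIP the authors deposited read counts per chromosome of both genomes, and ratios of SK1 to S288c reads in ChIP were divided by those in input. For CC-seq, removal of duplicate reads is not given in the sources used here.

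Mean HpM was smoothed with a Hann window of 201 bp. Hotspots exceeded 0.2 HpM per bp over at least 25 bp and were merged across gaps under 200 bp. The 3 genotypes were fitted together with limma 3.58.1 (log2(HpM + 1), trend, Benjamini-Hochberg over 3569 hotspots), and the recovered reads were tested with edgeR (version 4.0.16) and with DESeq2 (version 1.42.0) as alternatives. The fit was run on simulated data in which 200 hotspots changed by 1 in log2. It recovered 163 of them with 17 false calls among 3369 for *pch2* against *rad50S*, and 138 with 7 false calls against *hop1-loop2*. All groups were drawn from the same hotspot means, so the simulation held no shift over all hotspots and no added background in *pch2* replicate 2. Work was done in R 4.3.3 and Python 3.11.15.

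Named hotspots were the 10 strongest stable ones, the 3 widest and narrowest, the 3 largest called decreases and increases with *pch2* without overlap, the 3 of at least 200 HpM nearest *rad50S* with *pch2*, the 3 of at least 500 HpM with a *rad50S hop1-loop2* ratio nearest 1, 2 on each side of each threshold, the longest runs, and the 2 lowest and highest flank ratios. Hotspots, rules and tests were chosen with earlier results of these data known. The reference supplied is S288C, so no gene or sequence is given. Tracks of Hop1 ChIP-seq and other SNP-ChIP sets were not used here.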

Additional observations from a re-analysis of the deposited data

How the results depend on the processing

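The number of stable hotspots (335) was 207 with a minimum of 200 HpM and 169 with a ratio from 0.9 to its inverse, and 317 to 474 under the other settings of the rule, with 310 to 340 when 1 library was left out. The median width and the median flank ratio stayed within 1.5 times under every setting run. The 105 hotspots inside the window with *pch2* were 164 with centring on the median ratio, 56 with the minimum of 200 HpM, 22 with the narrower ratio and 69 to 141 without 1 library. Against *rad50S*, the 132 lower calls were 52 with centring, 62 in edgeR and 62 in DESeq2, and 68 to 224 without 1 library, and the 7 higher calls were 35 relative to hits in hotspots, 32 with centring, 65 in edgeR, 65 in DESeq2 and 2 to 32 without 1 library. Against *rad50S hop1-loop2*, the 79 lower calls were 20 with centring, 51 in limma without trend and 1 to 208 without 1 library. The 1 higher call was 2 with either caller threshold (0.1 or 0.4 HpM per bp), with a pseudocount of 10 HpM and after thinning to the lowest depth, 21 relative to hits in hotspots and in edgeR, 28 in DESeq2, 9 with centring, 0 in limma without trend and 0 to 17 without 1 library. The 37 changed balances were 60 with a pseudocount of 10 HpM and 126 to 182 without a *pch2* library. The share of hits with *pch2* was 9.41% to 12.7% in single libraries. In edgeR and DESeq2 the fitted changes against *rad50S* at chromosomes V (347891 to 348153), X (347460 to 348279) and XII (738511 to 738748), at -0.02, -0.00 and -0.04 in limma without a call, were 0.47, 0.46 and 0.43 and 0.48, 0.48 and 0.45, with calls. Over the 335 stable hotspots the median log2 change against *rad50S* also differed, at -0.50 in limma, -0.02 in edgeR and -0.005 in DESeq2. In edgeR (trimmed mean of M-values) and DESeq2 (median of ratios) the scaling factors came from the reads in hotspots and centred the typical hotspot. In limma the scale was all hits of a library. With limma relative to hits in hotspots the median was -0.20 over 336 stable hotspots. The part of the scale in these calls was not tested.

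Deviations of same-numbered libraries correlated by 0.31 (*rad50S* and *rad50S hop1-loop2*), 0.085 (*rad50S* and *pch2*) and 0.11, so the number was not taken to pair samples. With the replicate block 148 fell and 10 rose against *rad50S*, 96 fell and 5 rose against *rad50S hop1-loop2*, and 42 balances changed. Depth limits *pch2* replicate 2, where a stable hotspot held as few as 31 hits.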
